A study of Homo sapiens with 6 samples.

Results

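The genes described are the subunits of the endosomal sorting complexes required for transport (ESCRT), a machine that pinches off membranes, in T3M4 cells, an established human line of pancreatic ductal adenocarcinoma. The 31 members were chosen by gene name, as the subunits of ESCRT-0, I, II and III, the ATPases that take ESCRT-III apart and their cofactor, and the adaptor ALIX. All 31 were found among the 58735 genes of the count table, and 30 of them passed the filter on low counts. No expression value entered the choice as it is written, but the list was put forward with results of this same comparison known. The levels and calls below therefore describe the members and are no independent evidence about the machinery as a whole.

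RNA sequencing covered 6 libraries in 2 groups of 3, all from untreated cells taken near confluence. The genotype label of the first group reads MUC16 expressing and its titles read T3M4WT (WT-labelled below). The genotype label of the other reads MUC16 knockout and its titles read T3M4M16 (KO-labelled below). How the knockout was made, and whether it is 1 clone, is not given in the sources used here. Replicates are not said to be separate cultures, so every p-value here reflects the spread among these libraries, which may be technical.

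Library totals lay between 19088927 and 28612621 counts, with 1.98% to 2.26% from mitochondrial genes. MUC16 itself, the targeted mucin, had 3.72, 5.35 and 4.03 CPM in the WT-labelled libraries and 14.9, 19.6 and 11.0 CPM in the KO-labelled ones (CPM, counts relative to library size, scaled with TMM factors). Its transcripts were higher (log2 fold change 1.79 ± 0.17, SE, edgeR adjusted p = 4.79e-09) in the group labelled knockout, against the label, and each direction below is that of the KO-labelled relative to the WT-labelled libraries. A whole-gene count does not show whether a transcript was edited. Markers of the labelled epithelial identity were abundant: KRT8, KRT18, KRT19, EPCAM, CDH1 and MUC1 summed to 2902 to 2959 CPM in the WT-labelled and 4830 to 5052 CPM in the KO-labelled libraries. Of these, 6 of 6 were called higher, where 26.7% of all genes tested were. That share stands beside each marker count that follows. Markers of other cell types were low apart from COL1A1 and PECAM1. The 6 fibroblast markers summed to 30.7 to 34.1 and 42.4 to 46.7 CPM, with COL1A1 called higher and DCN, COL1A2 and COL3A1 each under 0.2 CPM. The 3 endothelial markers summed to 13.4 to 16.5 and 19.7 to 22.0 CPM, with 3 of 3 called higher. The 5 immune markers summed to 0.114 to 0.372 and 1.02 to 1.40 CPM, with 1 tested and higher and PTPRC and CD3E each under 0.2 CPM. The part of these shifts in the results below was not tested.

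ESCRT complexes act in sequence on membranes, from the side of the cytosol. ESCRT-0 gathers ubiquitin-tagged receptors on the endosome, ESCRT-I and ESCRT-II pass them on, and ESCRT-III polymerises into filaments that narrow and cut the membrane neck, after which the ATPase VPS4 recycles the filaments. The same ESCRT-III proteins cut the bridge between daughter cells at the end of division, reseal the nuclear envelope, repair the plasma membrane and release exosomes and budding viruses. In carcinoma cells the pathway is best known for sending activated growth factor receptors to the lysosome.

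Transcript levels of ESCRT genes shifted little and unevenly along this sequence. The filament genes of ESCRT-III were mostly higher, 8 of 12 called higher and 0 lower, and 3 of 8 tested ESCRT-I genes were called higher and 0 lower. Of the 3 receptor-gathering genes of ESCRT-0, HGS and STAM2 were called lower and 0 higher, and STAM2 lost its call without WT replicate 1 (adjusted p = 0.0961) or KO replicate 2 (adjusted p = 0.0507). None of the 3 ESCRT-II genes passed the test, the 2 VPS4 ATPases went opposite ways, and ALIX did not pass. In all 12 members were higher, 3 lower and 15 not past an adjusted p of 0.05 (edgeR quasi-likelihood test, Benjamini-Hochberg over 16655 genes). That is 50% of the 30 tested, beside 52.6% of all genes tested. By direction it is 40% of members higher beside 26.7% of all genes, and 10% lower beside 25.9%. Nothing is read from these shares, since the members were proposed with this contrast known. In bulk RNA fewer cells of a kind and less RNA per cell cannot be told apart. Each count of 0 was also 0 by DESeq2 and by limma-voom. At an unadjusted p under 0.05 they were 0 too, except in ESCRT-II, where VPS25 was higher and SNF8 lower at that level. Other alternatives gave 1 higher ESCRT-II gene (upper-quartile factors, cyclic loess, a stricter filter or without KO replicate 2) or 1 lower (DESeq2 size factors).

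The differences were small. No member differed by 2-fold, whereas 8.87% of all tested genes were called with at least that change. The log2 fold changes of members ran from -0.29 in HGS to 0.68 in CHMP1B, with a median of 0.14, against a median of 0.00 for all genes (quartiles -0.24 and 0.34). Members within 1.25-fold numbered 26 of 30, beside 55.6% of all genes. Most members are well expressed: 27 had a mean of at least 16 CPM, and of the 8574 genes at that level 69.7% were within 1.25-fold and 64.8% were called, with a median of -0.07. Of those 27 members, 23 were within 1.25-fold and 15 were called. Values of the groups did not overlap for 21 of the 30 members, beside 59.0% of all genes. The authors' deposited table, from the same counts, also gives 12 members higher and 3 lower at an adjusted p under 0.05.

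**Figure D1:**
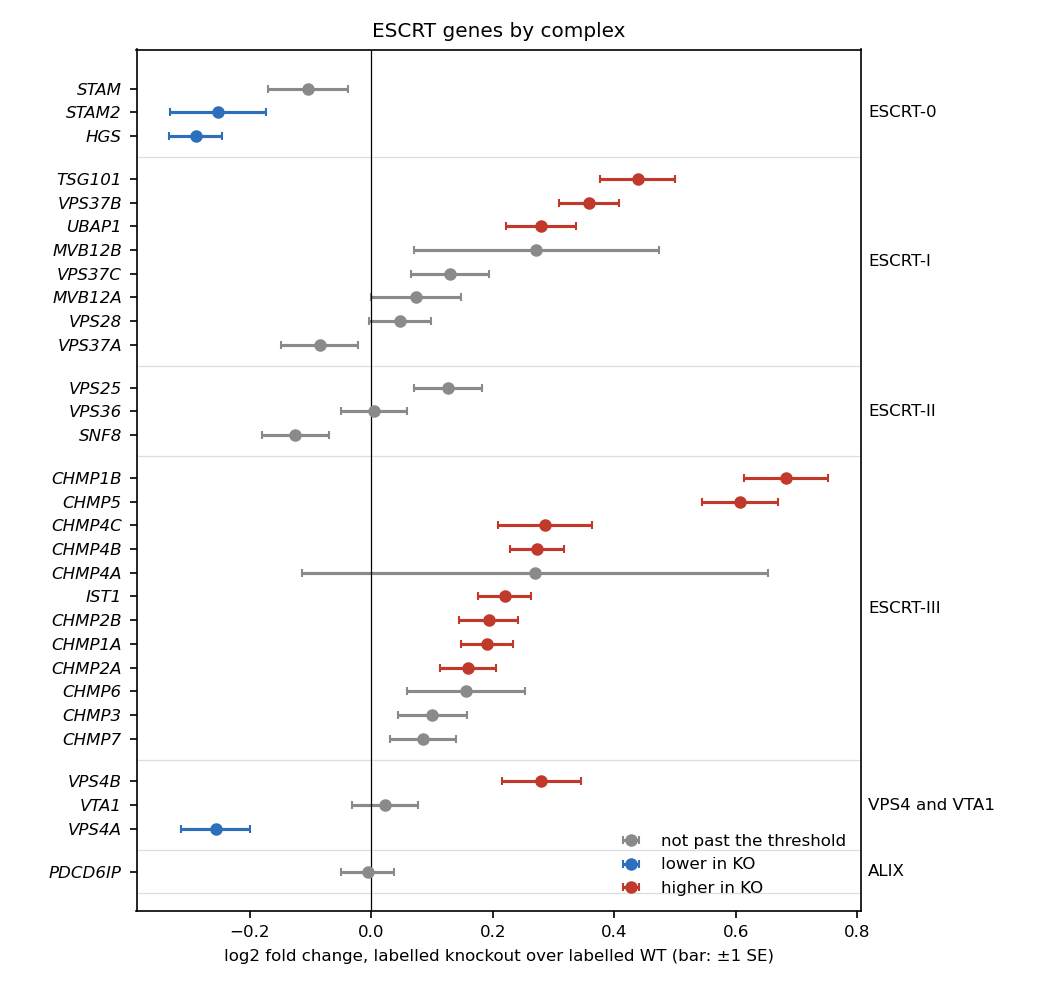
Log2 fold change of the 30 tested ESCRT genes (x axis, KO-labelled over WT-labelled, bars ±1 SE, n = 3 each), grouped by complex. All 12 ESCRT-III genes lie right of 0, the 3 ESCRT-0 genes lie left of it, and VPS4A and VPS4B lie on opposite sides; CHMP4A, the ESCRT-III gene with the widest bar, turned negative with cyclic loess scaling.

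Per length of exon, the members differed over about 3 orders of magnitude. The length counts the exons of all annotated transcripts, 1 for CHMP4B and 17 for HGS, so the order below depends on it. Not divided by length, HGS was highest, with 252 ± 10.5 CPM in the WT-labelled and 206 ± 7.44 in the KO-labelled libraries. CHMP4B had 165 ± 7.50 and 199 ± 7.42 CPM on that scale. The filament subunit CHMP4B was highest, at 100.1 ± 4.55 CPM per kb in the WT-labelled and 121 ± 4.51 in the KO-labelled libraries (SD, n = 3 each). Next came CHMP2A with 59.7 ± 2.77 and 66.6 ± 2.08 CPM per kb and CHMP1A with 49.1 ± 2.07 and 56.1 ± 1.26. The ranges of these 3 genes did not overlap each other in either group. Most of the other members lay close together, between 4.02 ± 0.433 (STAM2) and 30.5 ± 1.28 CPM per kb (HGS) in the WT-labelled libraries. Neighbours in this range can lie within each other's spread, as VTA1 and MVB12A did with 8.54 ± 0.275 and 8.30 ± 0.599 CPM per kb. Far below the rest stood 3 genes. MVB12B had 0.276 ± 0.0438 CPM per kb in the WT-labelled libraries, CHMP4A 0.265 ± 0.100 and VPS37D 0.0663 ± 0.0380.

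**Figure D2:**
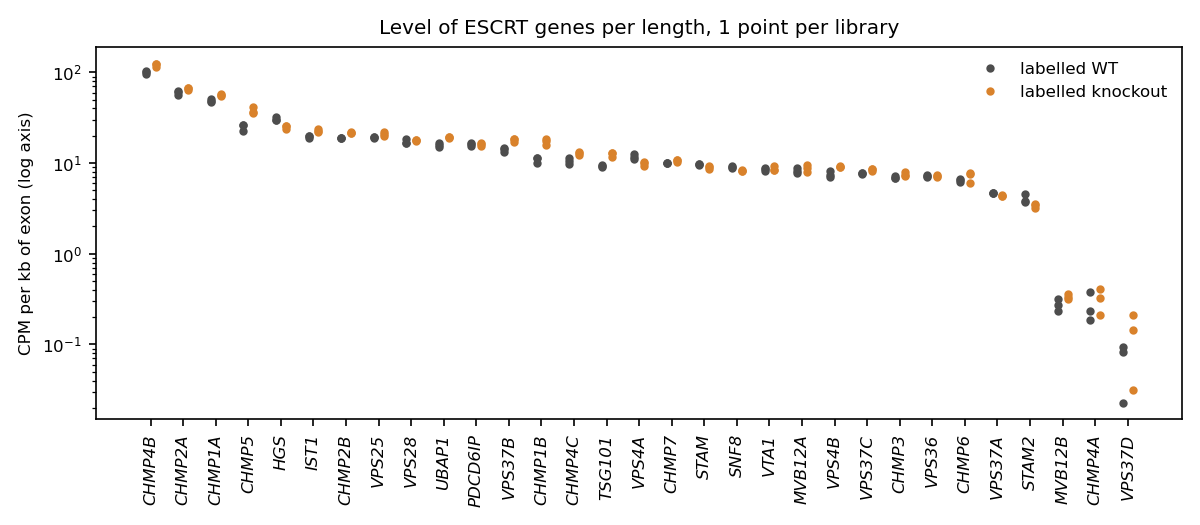
Level of all 31 members per length (y axis, CPM per kb of exon, log axis), 1 point per library, sorted by the mean over the 6 libraries. CHMP4B lies between 95.2 and 124 CPM per kb in the single libraries, above all other members, and MVB12B, CHMP4A and VPS37D lie below 0.5.

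ESCRT-0 captures ubiquitylated cargo, and its subunit HGS was lower in every alternative. Of the STAM subunits 1 of 2 was called, beside 52.6% of all genes tested. HGS, also known as HRS, binds ubiquitin and the endosomal lipid PI3P and brings in ESCRT-I. It had 246, 246 and 264 CPM in the WT-labelled libraries and 209.9, 211 and 198 CPM in the KO-labelled ones. All KO-labelled libraries lay below all WT-labelled ones (log2 fold change -0.29 ± 0.04, SE, adjusted p = 6.03e-06). STAM2, one of the ubiquitin-binding partners of HGS, had 31.6, 25.8 and 27.0 CPM in the WT-labelled libraries and 24.7, 22.5 and 23.9 CPM in the KO-labelled ones. The groups did not overlap, but WT replicate 1 stood above the other two. STAM2 passed the test (-0.25 ± 0.08, adjusted p = 0.00986), but its log2 fold change was -0.16 without WT replicate 1 and -0.21 without KO replicate 2, where the call was lost. Its paralogue STAM had 31.5 ± 0.599 and 29.4 ± 1.23 CPM and did not pass (-0.10 ± 0.07, adjusted p = 0.195). The 3 genes together fell from 311 ± 10.3 to 259 ± 8.40 CPM (SD, n = 3 each), a sum that HGS dominates. HGS shares 23.5% of its exon bases with genes on the opposite strand, ARL16 among them (log2 fold change -0.28).

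ESCRT-I is a rod of 4 kinds of subunit that bridges the cargo-gathering and the filament-forming complexes. TSG101, its ubiquitin-binding head and the subunit that many viruses recruit, had 35.4, 36.7 and 34.6 CPM in the WT-labelled libraries and 50.2, 45.0 and 49.5 CPM in the KO-labelled ones. Each KO-labelled library was above each WT-labelled one (log2 fold change 0.44 ± 0.06, SE, adjusted p = 2.07e-06). VPS37B is 1 of 4 alternative VPS37 subunits. It had 79.2, 86.1 and 86.7 CPM in the WT-labelled libraries and 111, 103 and 109 CPM in the KO-labelled ones, again without overlap (0.36 ± 0.05, adjusted p = 1.64e-06). UBAP1, which takes part in an endosome-specific form of ESCRT-I, had 46.2, 41.2 and 43.9 CPM in the WT-labelled libraries and 53.2, 54.0 and 52.1 CPM in the KO-labelled ones (0.28 ± 0.06, adjusted p = 0.000258). These 3 were the called members of the complex.

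The other ESCRT-I subunits did not pass. VPS28, the subunit that contacts ESCRT-II, was at 65.0 ± 3.43 and 67.2 ± 0.565 CPM (0.05 ± 0.05). VPS37C had a log2 fold change of 0.13 ± 0.06 (adjusted p = 0.0954) and VPS37A of -0.08 ± 0.06 (adjusted p = 0.277). VPS37C passed with upper-quartile factors (adjusted p = 0.019), cyclic loess (0.0433) and a stricter filter (0.0387). The ESCRT-I count was then 4 higher. MVB12A and MVB12B, paralogues of another subunit of the rod, had 0.07 ± 0.07 and 0.27 ± 0.20, the latter at only 2.18 ± 0.345 and 2.65 ± 0.161 CPM. VPS37D had 4, 1 and 3 counts in the WT-labelled and 1, 6 and 10 in the KO-labelled libraries and was left out by the filter. The authors' deposited table gives it a log2 fold change of 0.98 with an adjusted p of 0.546. VPS37B shares 36.0% of its exon bases with other genes, mostly with AC027290.2 on its own strand (299 counts in all, against 14352 for VPS37B). MVB12A shares 27.1%, partly with the non-coding gene BISPR, which was higher (0.64).

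ESCRT-II, a Y-shaped complex that joins ESCRT-I to the first filament subunit, showed no called gene. VPS25, the subunit that touches ESCRT-III, had 46.2, 46.0 and 46.2 CPM in the WT-labelled libraries and 53.0, 48.0 and 50.4 CPM in the KO-labelled ones. Its groups did not overlap, yet it missed the threshold (0.13 ± 0.06, adjusted p = 0.0624). The adjusted p was 0.00895 when upper-quartile factors replaced TMM, 0.0096 after cyclic loess, 0.022 on the more abundant genes alone (50 counts in 3 libraries) and 0.0296 without KO replicate 2. SNF8 lay the other way (-0.12 ± 0.06, adjusted p = 0.0628) and passed only with DESeq2 size factors (adjusted p = 0.0434). VPS36, which binds ubiquitin and lipid, was at 52.6 ± 1.70 and 52.8 ± 1.55 CPM (0.00 ± 0.05), with a sign that changed in 6 of 15 alternatives.

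ESCRT-III, the part that cuts membranes, held the largest changes. CHMP1B, a late filament subunit that recruits VPS4 and the microtubule-severing enzyme spastin, changed most of all members. It had 30.2, 34.7 and 34.3 CPM in the WT-labelled libraries and 54.0, 48.2 and 57.0 CPM in the KO-labelled ones. The lowest KO-labelled library was above the highest WT-labelled one (log2 fold change 0.68 ± 0.07, SE, adjusted p = 1.66e-08). CHMP5, which binds the VPS4 cofactor VTA1, had 63.3, 62.1 and 53.4 CPM in the WT-labelled libraries and 87.3, 85.9 and 99.2 CPM in the KO-labelled ones, also without overlap (0.61 ± 0.06, adjusted p = 2.32e-08). Over all 15 alternatives the log2 fold change of CHMP1B stayed between 0.62 and 0.75 and that of CHMP5 between 0.53 and 0.68, called in each. Of the exon bases of CHMP1B 18.1% are shared with CHMP1B-AS1 on the opposite strand, which had 0 counts. CHMP1B (ENSG00000255112) lies on chromosome 18 at 11851396 to 11854449, plus strand, and CHMP5 (ENSG00000086065) on chromosome 9 at 33264879 to 33282069, plus strand (GRCh38).

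Sequence just before the RefSeq start sites of these genes (GRCh38.p14, gene strand, 5′ to 3′) is shown because they are the members with the largest rises. For CHMP1B it is the whole window of 250 bases, and for CHMP5, whose window lies largely in first exons of GENCODE, only the match below with 10 bases on each side. The windows of the 24 members with an entry in the RefSeq promoter table were searched on both strands for 4 motifs that do not overlap each other here: the cyclic AMP response element TGACGTCA, the ETS site CCGGAAGT, the E-box TCACGTGA of the TFEB type and CCAAT. Capitals mark a match.
CHMP1B, chr18:11851163-11851412, plus strand: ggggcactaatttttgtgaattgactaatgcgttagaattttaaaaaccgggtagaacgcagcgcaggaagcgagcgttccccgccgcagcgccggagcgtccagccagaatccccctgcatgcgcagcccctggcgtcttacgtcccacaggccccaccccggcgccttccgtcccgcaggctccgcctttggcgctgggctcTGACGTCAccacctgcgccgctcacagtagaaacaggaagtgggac
CHMP5, chr9:33264990-33265017, plus strand: cacggaggggCCGGAAGTcgaggcggga
In CHMP1B the letters TGACGTCA begin 46 bases before the start, and in CHMP5 the letters CCGGAAGT begin 49 bases before it. TGACGTCA was found before 3 of the 24 members, CHMP1B, VPS37B and UBAP1, and before 1.77% of 27305 promoters of the same length (2.75% of those of tested genes). CCGGAAGT was found before 6 members, STAM2, TSG101, VPS25, CHMP1A, CHMP5 and PDCD6IP, and before 3.64% of all promoters (6.74% of those of tested genes). TCACGTGA was found before 2 members and 0.890% of promoters, and CCAAT before 7 members and 33.0%. These are matches of letters only.

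The CHMP4 proteins form the core of the filament, and 2 of the 3 genes were higher, beside 26.7% of all genes tested. Nothing is read from that count. CHMP4B, the main form, had 166, 172 and 157 CPM in the WT-labelled libraries and 204, 191 and 203 CPM in the KO-labelled ones (log2 fold change 0.27 ± 0.04, SE, adjusted p = 1.79e-05). CHMP4C, which delays the final cut of cell division when chromatin is trapped, had 19.7, 18.2 and 21.2 CPM in the WT-labelled libraries and 23.0, 24.0 and 24.7 CPM in the KO-labelled ones (0.29 ± 0.08, adjusted p = 0.00329). Both rose by a similar factor from very different levels, and neither had overlapping groups. CHMP4C shares 13.4% of its exon bases with ZFAND1 on the opposite strand (log2 fold change -0.07). ZFAND1 had 6101 counts in all, against 3270 for CHMP4C, whose count is uncertain for that reason. CHMP4A was barely read, with 24, 15 and 10 counts and 10, 20 and 29 counts. It did not pass (0.27 ± 0.38, adjusted p = 0.581), and with cyclic loess its sign turned (-0.05). Of its exon bases 68.8% are shared with AL096870.2 on the same strand, so its count is uncertain.

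IST1, which controls how VPS4 meets the filament, had 156, 146 and 155 CPM in the WT-labelled libraries and 173, 174 and 185 CPM in the KO-labelled ones (0.22 ± 0.04, adjusted p = 0.000177). The remaining called filament genes rose by less: CHMP2B from 58.8 ± 0.610 to 67.2 ± 1.11 CPM (0.19 ± 0.05), CHMP1A from 158 ± 6.65 to 179.8 ± 4.04 CPM (0.19 ± 0.04) and CHMP2A from 127 ± 5.89 to 142 ± 4.42 CPM (0.16 ± 0.05). CHMP2A and CHMP2B join late with CHMP3 to close the filament. Adjusted p-values were 0.00206, 0.000709 and 0.00525, in that order. CHMP6, which links ESCRT-II to the filament, CHMP3, and CHMP7, the subunit of the nuclear envelope, did not pass (0.16 ± 0.10, 0.10 ± 0.06 and 0.09 ± 0.05). CHMP3 and CHMP7 passed with upper-quartile factors and with cyclic loess (adjusted p 0.0235 to 0.0369), which brought the ESCRT-III count to 10 of 12, and CHMP6 without KO replicate 1 (0.25, adjusted p = 0.0415). The 12 genes together had 883 ± 15.9 CPM in the WT-labelled and 1052 ± 25.8 CPM in the KO-labelled libraries.

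**Figure D3:**
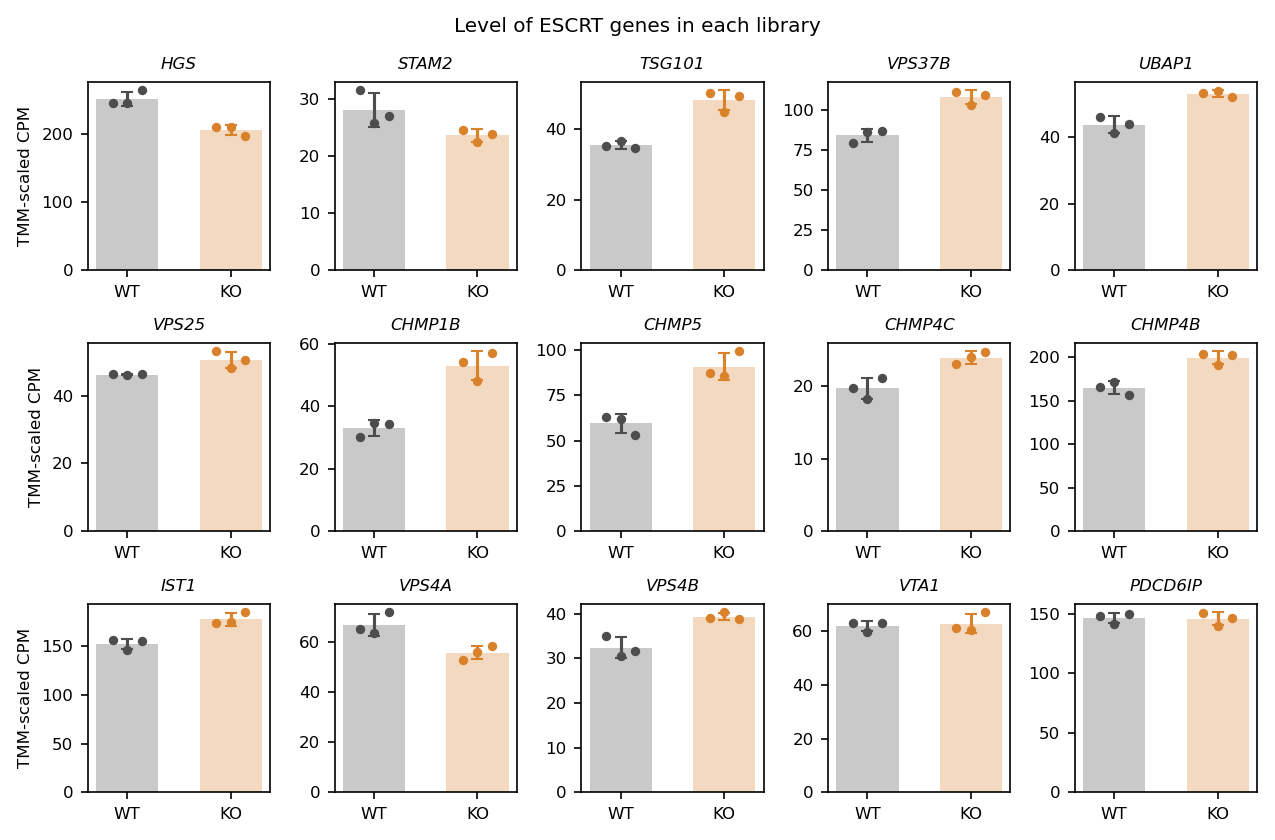
TMM-scaled CPM of 15 members in each library (points), with the mean (bar, axis from 0) and SD, n = 3 each. HGS, STAM2 and VPS4A are lower in all KO-labelled libraries, whereas TSG101, VPS37B, UBAP1, CHMP1B, CHMP5, CHMP4C, CHMP4B, IST1 and VPS4B are higher in all of them. VTA1 and PDCD6IP overlap.

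The VPS4 ATPases, which pull subunits out of the filament, moved in opposite directions. VPS4A (ENSG00000132612, chromosome 16, 69311356 to 69326939, plus strand) had 65.5, 63.6 and 72.0 CPM in the WT-labelled libraries and 53.0, 56.4 and 58.5 CPM in the KO-labelled ones. Its log2 fold change was -0.26 ± 0.06 (SE, adjusted p = 0.000579). VPS4B (ENSG00000119541, chromosome 18, 63389190 to 63422483, minus strand) had 35.0, 30.5 and 31.7 CPM in the WT-labelled libraries and 39.0, 40.3 and 38.8 CPM in the KO-labelled ones. Its log2 fold change was 0.28 ± 0.07 (adjusted p = 0.000881). In both the groups did not overlap, and both kept their call in 15 of 15 alternatives. Of the exon bases of VPS4A 36.4% are shared, 22% with COG8 on the opposite strand (log2 fold change 0.20, adjusted p = 0.0492). COG8 had 2701 counts in all, against 9242 for VPS4A. Another gene, AC026464.4 on the same strand as VPS4A, shares 21% and had 0 counts. The count of VPS4A is therefore uncertain, but a share of bases is not a share of reads. VPS4B shares no exon bases. VTA1, the cofactor that activates both, had 63.3, 59.7 and 63.1 CPM in the WT-labelled libraries and 61.2, 60.5 and 67.0 CPM in the KO-labelled ones and did not pass (0.02 ± 0.05), with a sign that changed in 2 of 15 alternatives.

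The whole windows of 250 bases before the 2 ATPase genes are shown because their transcripts went opposite ways.
VPS4A, chr16:69311100-69311349, plus strand: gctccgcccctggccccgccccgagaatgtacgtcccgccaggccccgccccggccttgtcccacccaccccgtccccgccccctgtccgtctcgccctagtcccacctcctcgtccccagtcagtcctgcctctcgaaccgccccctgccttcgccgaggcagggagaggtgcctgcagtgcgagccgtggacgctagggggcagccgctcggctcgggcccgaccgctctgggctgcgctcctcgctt
VPS4B, chr18:63422477-63422726, minus strand: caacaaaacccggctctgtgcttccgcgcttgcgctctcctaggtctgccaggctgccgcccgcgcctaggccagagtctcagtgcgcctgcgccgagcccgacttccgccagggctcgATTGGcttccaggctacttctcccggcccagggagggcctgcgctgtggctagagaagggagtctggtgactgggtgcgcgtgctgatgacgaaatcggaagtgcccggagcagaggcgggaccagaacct
None of the 4 motifs is in the window of VPS4A. That of VPS4B holds CCAAT on the reverse strand, read as ATTGG from 131 bases before the start. G and C make up 74.8% of the VPS4A window and 66.4% of the VPS4B window, beside a median of 64.6% over the 24 members and 58% over all promoters.

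ALIX, encoded by PDCD6IP, reaches ESCRT-III by a route of its own, binding CHMP4 directly. It had 148, 141 and 149.5 CPM in the WT-labelled libraries and 150.3, 139.9 and 146 CPM in the KO-labelled ones. The groups overlapped (log2 fold change -0.01 ± 0.04, adjusted p = 0.926), and the sign changed in 5 of 15 alternatives.

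Several ESCRT subunits come as paralogues, and the balance within some families differed between the groups. As a share of the summed CPM per kb of its family in each library, VPS4A took 58.8%, 61.3% and 63.4% in the WT-labelled and 50.9%, 51.6% and 53.5% in the KO-labelled libraries, the rest being VPS4B. The mean share of VPS4A was 61.1% ± 2.30 and 52.0% ± 1.34 (SD, n = 3 each). CHMP1B took 17.3%, 18.1% and 18.8% of the CHMP1 pair in the WT-labelled and 24.5%, 21.8% and 24.6% in the KO-labelled libraries. VPS37B took 51.4%, 54.0% and 54.0% of its family against 58.9%, 56.9% and 58.9%, and VPS37A 18.0%, 17.6% and 17.2% against 13.6%, 14.4% and 14.4%. For these shares the groups did not overlap. They did overlap for CHMP2A (75.9% ± 0.818 and 75.5% ± 0.842), CHMP4B (90.2% ± 1.03 and 90.2% ± 0.537), STAM (70.8% ± 1.85 and 72.8% ± 1.52) and MVB12A (96.8% ± 0.414 and 96.3% ± 0.454). No test was made on the shares, which are given as a description. Those of VPS4A and VPS37B are also uncertain, since 36.4% and 36.0% of their exon bases are shared with other genes.

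**Figure D4:**
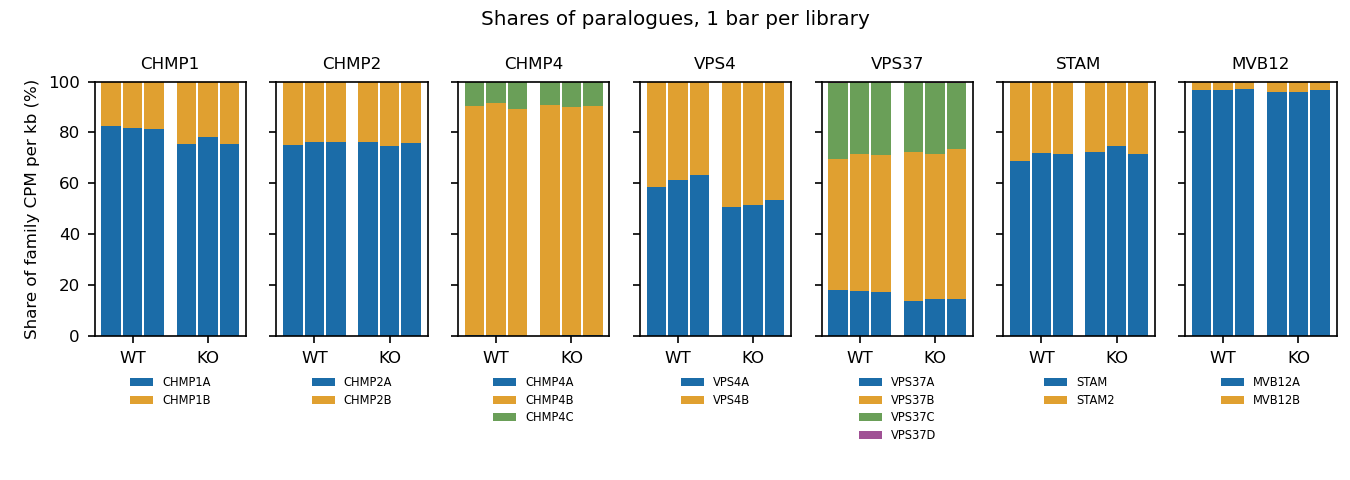
Share of each paralogue in the summed CPM per kb of its family (y axis, %), 1 bar per library, 3 WT-labelled and 3 KO-labelled. The VPS4A part shrinks from 61.1% to 52.0% on average and the CHMP1B part grows from 18.1% to 23.6%, while CHMP2 and CHMP4 look alike in both groups.

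The 30 tested members lie on 15 chromosomes, and chromosome 5, with a median log2 fold change of -0.20 over 781 genes, holds none of them. On chromosome 18 both CHMP1B and VPS4B were higher, where the median of 231 genes was -0.03. On chromosome 16 CHMP1A and IST1 were higher and VPS4A lower, with a median of -0.04 over 809 genes. On chromosome 17 HGS was lower and SNF8, VPS25 and CHMP6 did not pass, with a median of 0.02 over 982 genes.

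Genes that work with ESCRT were read from 4 lists of partners. Adaptors that gather ubiquitylated cargo beside ESCRT-0 were 2 of 9 higher and 3 lower (median 0.05), beside 26.7% of all genes higher, 25.9% lower and 52.6% called in all. Nothing particular to a list is read from such counts, here or for the lists that follow. TOM1 rose from 9.82 ± 1.48 to 14.7 ± 1.32 CPM (0.58 ± 0.11, SE, adjusted p = 9.92e-05) and TOLLIP, its endosomal partner, by 0.22. EPS15L1 fell (-0.19 ± 0.06, adjusted p = 0.0115). With upper-quartile factors or cyclic loess the counts were 4 higher and 0 lower, and EPS15L1 was also lost without WT replicate 3 (adjusted p = 0.0902) or KO replicate 3 (adjusted p = 0.067). GGA1 and GGA3, named here after their values were seen, were the other lower ones. Without WT replicate 3 or KO replicate 3, 1 adaptor was called lower.

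Regulators and ubiquitin enzymes were 5 higher and 7 lower of 18 (median -0.10), beside 52.6% called over all genes. STAMBPL1 and STAMBP are related deubiquitinases of the endosome, and they moved apart: STAMBPL1 fell from 17.9 ± 1.07 to 9.73 ± 0.876 CPM (-0.87 ± 0.10, adjusted p = 5.10e-08) and STAMBP rose from 36.5 ± 0.591 to 49.4 ± 1.67 CPM (0.44 ± 0.06, adjusted p = 8.94e-07). PDCD6, also called ALG-2, a calcium sensor that recruits ALIX, fell from 281 ± 14.5 to 186 ± 4.74 CPM (-0.60 ± 0.04, adjusted p = 7.33e-11). PDCD6 lies on chromosome 5, and the part of that chromosome's lower median in its fall was not tested.

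Partners in abscission, the final cut between daughter cells, and at the nuclear envelope were 2 higher and 9 lower of 15 (median -0.36), beside 26.7% higher and 25.9% lower over all genes. As the list was drawn up from such partners, what the 9 lower genes have in common is not a result. SPART, named after its value was seen, was among them (-0.24). KIF23, a motor that bundles the midbody, fell from 136 ± 4.77 to 83.4 ± 3.79 CPM (-0.70 ± 0.05, adjusted p = 1.91e-11). CDCA8 (-0.66) and AURKB, the kinase of the abscission checkpoint (-0.53), fell as well. CEP55, named after its value was seen because it brings TSG101 and ALIX to the midbody, had -0.12 ± 0.05 and did not pass (adjusted p = 0.058). LEMD2, the envelope protein that binds CHMP7, was one of the higher genes (0.30 ± 0.05) and was likewise named afterwards, as was the other, ZFYVE19 (0.21).

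Exosome cargo and release genes were 7 higher and 1 lower of 12 (median 0.26), beside 26.7% higher and 25.9% lower over all genes, and 64.8% called in either direction among genes of at least 16 CPM. The tetraspanin CD9 rose from 147 ± 5.27 to 221 ± 12.7 CPM (0.59 ± 0.05, adjusted p = 2.68e-10). RAB27A, which docks multivesicular bodies at the plasma membrane, rose by 0.54 and phospholipase PLD2 by 0.50. Named after their values were seen, the ALIX-binding adaptor SDCBP rose from 262 ± 8.30 to 324 ± 11.9 CPM (0.31), and SDC1, the lower gene, went from 569 ± 26.0 to 515 ± 14.6 CPM (-0.14 ± 0.04, adjusted p = 0.00583). With upper-quartile factors or cyclic loess SDC1 was not called.

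**Figure D5:**
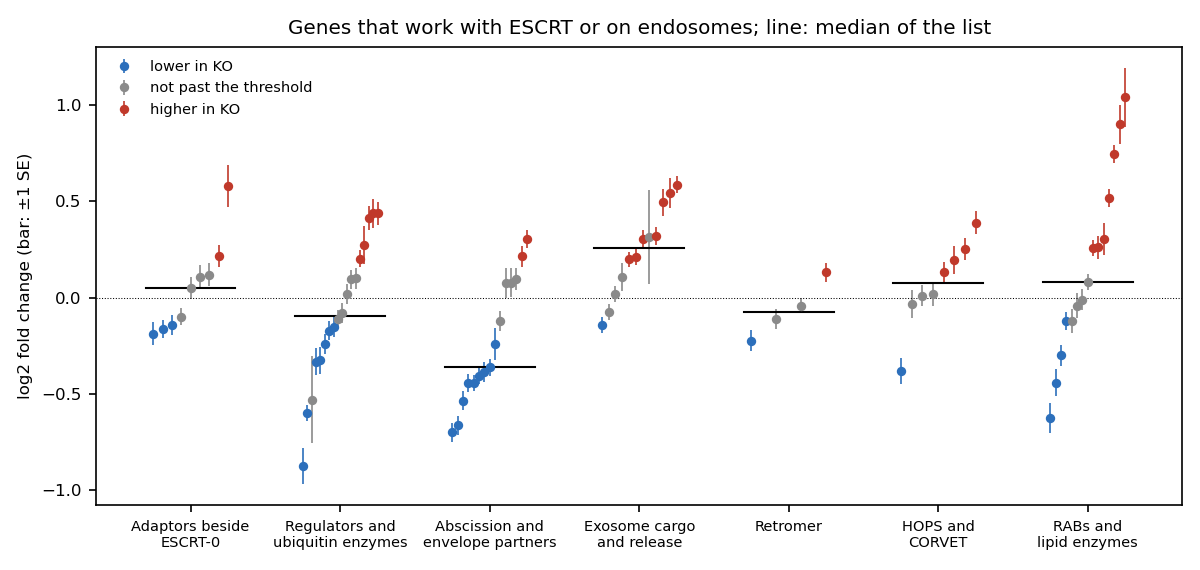
Log2 fold change (y axis, KO-labelled over WT-labelled, bars ±1 SE) of each tested gene in 7 lists of ESCRT partners and endosomal machinery; black lines are list medians. The abscission list has its median at -0.36 and the exosome list at 0.26, while the other lists have medians between -0.10 and 0.08.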

How the data were processed

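RNA of T3M4 cells was made into libraries with NEBNext Ultra reagents, per the labels' protocols, a kind of kit that keeps no strand information. The submitters' processing notes list fastp, HISAT2, STAR and DESeq, and the builds GRCh38 and hg38. Which program counted the reads, with which versions and which handling of strand, is not given in the sources used here. Reads of overlapping genes may therefore be mixed. Exon overlaps were computed from GENCODE release 29, whose exon unions equal the deposited lengths of all 31 members.

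The values used are the raw read counts per gene that the authors deposited. A second table by the authors also holds a normalised signal (a fixed rescaling of the counts of each library) and FPKM, both deposited and not used. It gives the authors' log2 fold changes and p-values, per the file headers, quoted only as the authors' deposited table.

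Counts were tested with edgeR 4.0.16 in R 4.3.3 (TMM factors, filterByExpr with minimum count 10 and minimum total 15, glmQLFit and glmQLFTest, two-sided, group only), adjusted by Benjamini-Hochberg over 16655 genes and called at 0.05. CPM per kb uses the deposited length. No list was tested. Replicate libraries were distinct (chi-square per degree of freedom of their counts 2.44 to 6.17). The alternatives changed the scaling (size factors of DESeq2, upper-quartile factors, or cyclic loess followed by limma-trend, limma 3.58.1), the filter (none, or at least 50 counts in 3 libraries), the tool (DESeq2 1.42.0, limma-voom), the design (replicate block), the libraries (each left out) and the threshold (0.01).

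The members, lists and naming rule were chosen with earlier results of these data known. Values by library are given for up to 3 called members per complex with the largest changes (5 for ESCRT-III), or else the member with the smallest p, and up to 3 genes are named per partner list. Outside this rule, MUC16, VTA1 and the counts of CHMP4A and VPS37D are also given by library. Motifs and the 4 promoters were chosen after the values were seen. Promoter sequences come from RefSeq (GRCh38.p14), where 24 members had an entry.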

Additional observations from a re-analysis of the deposited data

How the results depend on the processing

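The counts of members called, 12 higher and 3 lower, stayed within 12 to 16 higher and 2 to 4 lower over the 15 alternatives. Leaving out 1 library gave 12 to 13 higher and 2 to 3 lower, the lower count of 2 coming without WT replicate 1 or KO replicate 2 through STAM2. Over all genes the counts were 3477 to 5125 higher and 3458 to 4486 lower, beside 4442 and 4317. No scaling moved the median of all genes by more than 0.06, but well-expressed members could move by more. Over the alternatives HGS ran from -0.31 to -0.17, CHMP1A from 0.16 to 0.30 and IST1 from 0.19 to 0.32. The median log2 fold change of all genes also differed by level, from 0.26 at 1 to 4 CPM to -0.11 above 64 CPM, where 9 members lie. Of the 15 called members, 14 kept call and sign in every alternative. Members with the replicate number as a block were 12 higher and 3 lower, and all genes 4270 and 4172, so the block changed no call among the members. Same-numbered libraries did not deviate together (correlations of 0.01, 0.02 and -0.02), so the numbers were not taken as pairs. No member with a called change reversed its sign. Not dividing by length left the shift in the share of VPS4A at -8.70 percentage points, beside -9.18, and moved that of VPS37A from -3.42 to -4.21. CHMP4A could not be fitted under the stricter filter. Depth most limits what can be said of VPS37D, CHMP4A and MVB12B. CHMP6, the next lowest in counts, had 0.16 ± 0.10 (SE) and was not called, beside 0.16 ± 0.05 for the called CHMP2A.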

Other observations

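Machinery that receives or diverts what ESCRT sorts was measured in 3 further lists. Retromer, which returns receptors from the endosome, had 1 higher and 1 lower of 4 genes (median -0.08), beside 52.6% of all genes called. VPS26B fell from 61.0 ± 2.55 to 52.3 ± 1.48 CPM (mean ± SD of 3 libraries). Its log2 fold change was -0.22 ± 0.05 (SE, edgeR adjusted p = 0.00119). VPS29 passed narrowly (0.13 ± 0.05, adjusted p = 0.0318) and lost its call in 7 of 15 alternatives, among them DESeq2 (0.082) and leaving out WT replicate 2 (0.0639), WT replicate 3 (0.127), KO replicate 1 (0.134) or KO replicate 3 (0.184). The tethers HOPS and CORVET, which fuse endosomes and lysosomes, had 4 higher and 1 lower of 8 (median 0.08, beside 26.7% and 25.9% of all genes), with 2 higher in DESeq2, with no filter, at a threshold of 0.01 and without WT replicate 1, 2 or 3 or KO replicate 3. VPS18, a core subunit of both, rose from 39.7 ± 1.64 to 52.1 ± 3.28 CPM (0.39 ± 0.06), VPS39 of HOPS rose by 0.25, and TGFBRAP1 of CORVET fell from 36.0 ± 0.954 to 27.7 ± 1.52 CPM (-0.38 ± 0.07).

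Endosomal RABs and lipid enzymes were 7 higher and 4 lower of 15 (median 0.08), beside 26.7% and 25.9% of all genes. The largest changes were in genes of phosphoinositide metabolism at low levels. FIG4, a lipid phosphatase, rose from 3.49 ± 0.828 to 7.24 ± 0.463 CPM (1.04 ± 0.15, adjusted p = 4.68e-06). PIK3C3, the kinase that makes the PI3P bound by HGS, rose from 7.24 ± 0.507 to 13.6 ± 0.411 CPM (0.90 ± 0.10, adjusted p = 9.01e-08). RAB11B, a GTPase of recycling endosomes, rose from 89.2 ± 5.44 to 149.7 ± 1.30 CPM (0.75 ± 0.05, adjusted p = 6.28e-12). Named after their values were seen, RAB4A of fast recycling (-0.63 ± 0.08) and the PI3P-binding tether EEA1 (-0.44 ± 0.07) were lower.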
